A study of Mus musculus with 2 samples.

Results

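Agr2 was examined beside 9 of its thioredoxin-fold relatives of the endoplasmic reticulum: P4hb, Pdia3, Pdia4, Pdia5, Pdia6, Txndc5, Txndc12, Erp29 and Dnajc10. All probes whose gene symbol in the deposited signal table equals one of these 10 names (AGR2, P4HB, PDIA3, PDIA4, PDIA5, PDIA6, TXNDC5, TXNDC12, ERP29 and DNAJC10 there) were taken, which gave 13 of 25697 probes and 10 of 16682 genes. The rule matches names and uses no measured value, but the names were listed with earlier results of these data known. The tissue was labelled as the glandular stomach, emptied and rinsed, of female mice aged 26 weeks. One group was null for Agr2 and the other was wild-type, with 1 Illumina MouseRef-8 v2 array in each. The sources used here do not say how the null allele was made, which strain was used, or whether an array held the RNA of a single mouse. With 1 array a group, no difference has a replicate check and no test of genotype was made.

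Proteins that enter the secretory pathway acquire their disulfide bonds in the endoplasmic reticulum, where protein disulfide isomerases form, break and rearrange bonds between cysteines. Most of these enzymes carry a thioredoxin fold with a pair of active-site cysteines that trade electrons with client proteins. AGR2 is a small member of the family, best known from mucus-secreting epithelia, and in mouse intestine it is needed for the production of the gel-forming mucin MUC2.

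The null-labelled array gave the higher signal for the gene it should lack. Agr2, read by a single probe, read 3406 units of probe signal on the null-labelled array, against 972 on the wild-type-labelled array. Both values lay above the 99th percentile of 1314 olfactory and vomeronasal receptor probes that served as background, which was 227 on the null-labelled array and 200.4 on the wild-type-labelled array. After background correction and quantile normalization, Agr2 was 3.13-fold higher on the null-labelled array (log2 difference 1.64). The sources used here do not place the probe relative to the sequence deleted from Agr2, and a probe outside it would check nothing. Sex-linked genes also went against the shared label of female, mainly on the wild-type-labelled array. Xist, transcribed from the inactive X, read 1774 on the null-labelled array, against 186 (below background) on the wild-type-labelled array. The Y-linked gene Eif2s3y read 134 (below background) on the null-labelled array, against 2096 on the wild-type-labelled array. Among other Y-linked genes, Ddx3y read 2138 on the null-labelled array, against 5332 on the wild-type-labelled array, Kdm5d 119 (below background) on the null-labelled array, against 303 on the wild-type-labelled array, and Uty 245 on the null-labelled array, against 210 on the wild-type-labelled array. On the wild-type-labelled array, Xist below background beside a bright Eif2s3y goes against the label of female. Exchanging the labels would leave this conflict, since both arrays are labelled female. Sex and genotype therefore cannot be told apart in any difference given here. Whether the labels of the 2 arrays were exchanged was not tested, and an exchange would turn every direction given here. Arrays are therefore named by their labels, and "higher" and "lower" describe the null-labelled one.

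All 10 genes were detected on both arrays, and all 10 had higher normalized values on the null-labelled array, as did 51.9% of all genes detected on both. A gene was called detected where fewer than 1% of the background probes were as bright. Of the 10 genes, 5 were at least 2-fold higher, 5 were within 2-fold and 0 were at least 2-fold lower. Of the 9257 genes detected on at least 1 array, 12.9% were higher by 2-fold or more and 17.1% were lower by as much. At a 1.5-fold mark 7 members were higher, beside 24.2% of detected genes, and at a 3-fold mark 3 members, beside 5.44%. Over the 7564 genes detected on both arrays, as all members were, 10.5% were higher by 2-fold or more and 10.7% were lower by as much. The median log2 difference was 1.20 for the 10 members, 0.99 for the 9 relatives without Agr2, and 0.03 for all genes detected on both arrays. Scaling the arrays to equal medians moved the median of all detected genes to 0.11. Under that scaling 6 members were at least 2-fold higher, beside 15.4% of detected genes, and 5 were so relative to the moved median, beside 12.9%. Fewer cells of a type and less RNA per cell cannot be told apart in whole tissue.

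**Figure D1:**
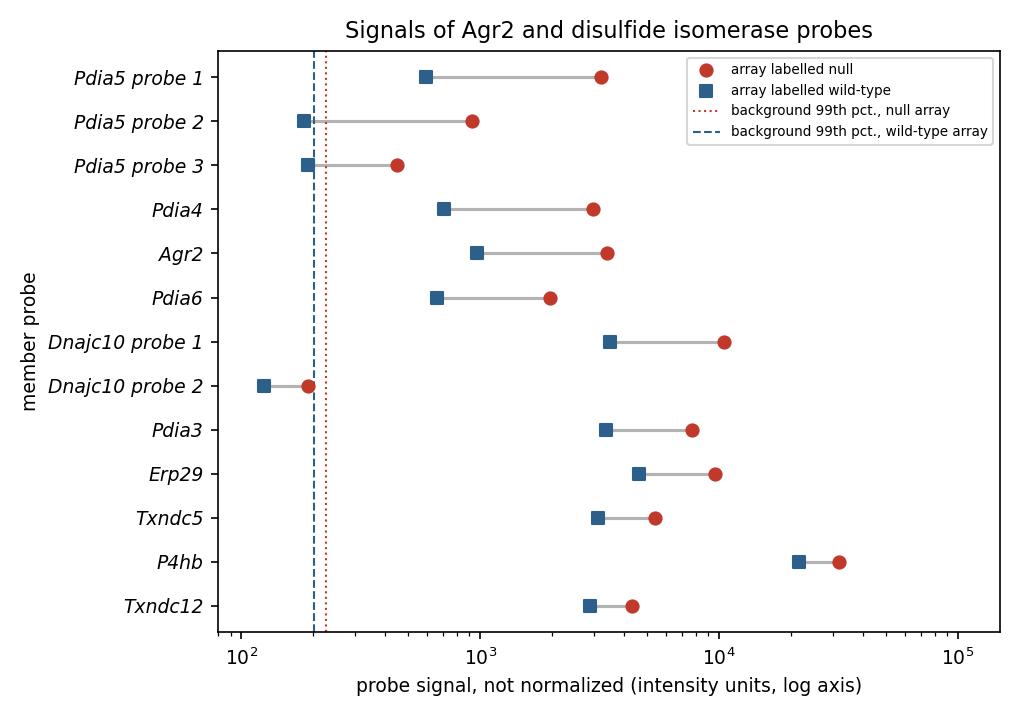
Signals of the 13 member probes on the null-labelled array (red circles) and the wild-type-labelled array (blue squares), on a log axis of intensity, with vertical lines at the 99th percentile of background (227 for the null-labelled array, 200.4 for the wild-type-labelled array). Every red point lies to the right of its blue point, and a Dnajc10 probe lies left of both lines on both arrays.

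Among the isomerases Pdia5, Pdia4, Pdia6, Pdia3, Txndc5 and P4hb the differences ran over a wide range, with Pdia5 and Pdia4 at the top and P4hb at the bottom. Pdia5 (also called PDIR), an isomerase with several thioredoxin domains, was read by 3 probes. Its brightest probe had a signal of 3203 on the null-labelled array, against 590 on the wild-type-labelled array, a 5.21-fold difference after normalization. The second probe read 923 on the null-labelled array, against 183 on the wild-type-labelled array, where it was below background. For such a probe the fold is given at a limit, taken against the lowest normalized value among detected probes of the dim array where that is above the probe's own, and here it was 7.38-fold. This limit is computed after background correction, which widens the folds of dim probes, and the ratio of the uncorrected signals was 5.03. Such a limit is given as a minimum only where the uncorrected ratio is no smaller. Uncorrected ratios still hold the difference in mean signal between the arrays (925 on the null-labelled array, 811 on the wild-type-labelled array). The third probe read 449 on the null-labelled array, against 189 (below background) on the wild-type-labelled array, 3.02-fold higher at its limit and 2.37-fold by the uncorrected signals. All 3 probes were brighter on the null-labelled array. Of the genes detected on both arrays, 0.939% had a larger difference than the brightest Pdia5 probe.

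Pdia4 (ERp72), an isomerase with extra catalytic thioredoxin domains, read 2959 on the null-labelled array, against 705 on the wild-type-labelled array. It was 3.87-fold higher (log2 difference 1.95), and 1.88% of the genes detected on both arrays had a larger difference. Pdia6 (P5), an isomerase that works with the chaperone BiP, read 1969 on the null-labelled array, against 659 on the wild-type-labelled array. Its normalized value was 2.74-fold higher (1.46), with 4.46% of those genes above it. The fold of Agr2 lay between those of Pdia4 and Pdia6.

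Pdia3 (ERp57), which folds glycoproteins together with calnexin and calreticulin and takes part in peptide loading of class I histocompatibility molecules, read 7743 on the null-labelled array, against 3364 on the wild-type-labelled array. It was 1.98-fold higher (0.99), just under the 2-fold mark, and it passed that mark in the authors' processed table and after scaling to equal medians. Txndc5 (ERp46), an isomerase that introduces disulfides together with peroxiredoxin 4, read 5392 on the null-labelled array, against 3122 on the wild-type-labelled array, a 1.47-fold difference (0.55). P4hb, the founding disulfide isomerase and also the beta subunit of prolyl 4-hydroxylase and a subunit of the microsomal triglyceride transfer protein, read 31941 on the null-labelled array, against 21546 on the wild-type-labelled array. It was 1.37-fold higher (0.46), and 27.6% of the genes detected on both arrays had a larger difference. No member signal reached 40000, above which signals approach the ceiling of the array.

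Dnajc10 (ERdj5), a reductase with a J domain that opens disulfides of proteins bound for degradation, had discordant probes in brightness. The brighter probe read 10530 on the null-labelled array, against 3486 on the wild-type-labelled array, 2.66-fold higher after normalization (1.41). The other probe was below background on both arrays, with 190 on the null-labelled array and 125 on the wild-type-labelled array, so it gives no fold. Of the small members, Erp29, a chaperone that lacks the catalytic cysteine pair, read 9591 on the null-labelled array, against 4619 on the wild-type-labelled array, a 1.83-fold difference (0.87). Txndc12 (ERp18), a small thiol-disulfide oxidoreductase, had the least difference of the 10, with 4317 on the null-labelled array, against 2878 on the wild-type-labelled array, 1.25-fold higher (0.33). A larger difference than that of Txndc12 was found for 33.4% of the genes detected on both arrays.

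**Figure D2:**
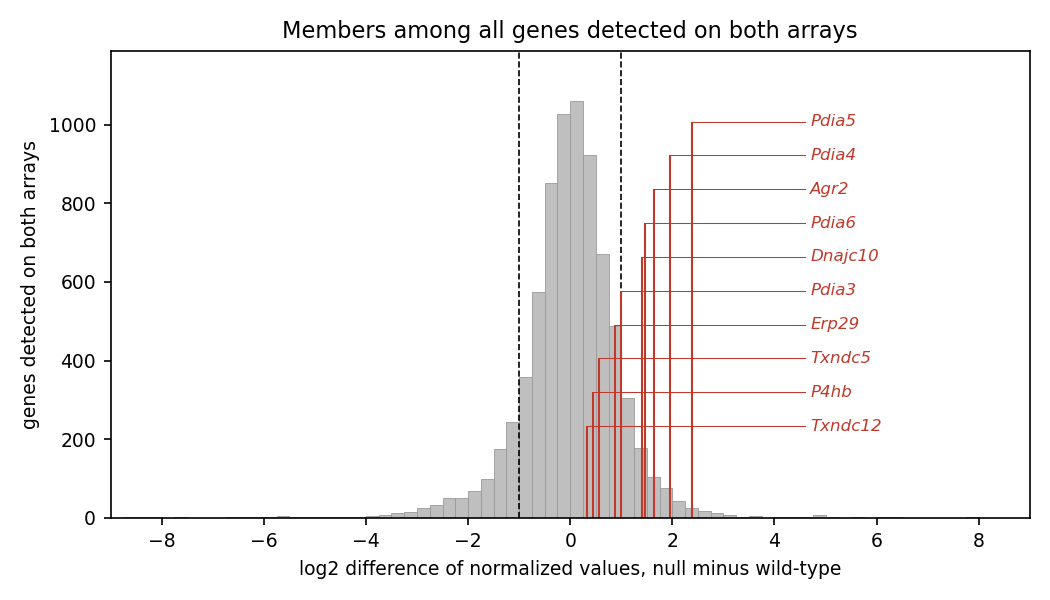
Histogram of the log2 difference of normalized values, null minus wild-type, over the 7564 genes detected on both arrays, with red lines at the 10 members and dashed lines at a 2-fold difference in either direction. The members run from 0.33 (Txndc12) to 2.38 (Pdia5), 8 of them above the upper quartile of all these genes, which was 0.52.

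Since all members were higher on the same array, their promoter windows were searched for the letters of the endoplasmic reticulum stress element, a site through which the unfolded protein response is known to act on chaperone genes. RefSeq windows (GRCm38.p6) from 250 bases before to 50 bases after the start were held for 9 of the 10 members, with none for Erp29. Members are counted by gene, over any of their 11 windows. The shares of all windows are counted by window (32851 windows of 27025 genes), so the units differ. The element, CCAAT followed after 9 bases of any kind by CCACG and searched on both strands, lay in the window of Pdia6 (bases 153 to 171), 1 of 9 members, and in 0.119% of 32851 windows of all genes. Without its last letter, a form chosen after the windows were seen, it also lay in the windows of Pdia3 (bases 222 to 239) and, on the reverse strand, Pdia4 (bases 144 to 161), so in 3 of 9 members and 0.365% of all windows. The related element, ATTGG followed after 1 base by CCACG, was found in 0 member windows and in 0.0365% of all windows. TGACGTGG, the core of another element of this response, lay in 1 of the windows of Txndc5 and in 0.676% of all windows. The window of Pdia5, the member with the largest difference, held none of these longer elements, nor did that of Agr2. A match of letters is a description and not a site in use, and no match says only that the letters are not in this window. The windows of the 3 matching genes, of Pdia5 and of Agr2 are shown 5′ to 3′ on the strand of the gene. Capitals mark CCAAT and CCACG on either strand (read as ATTGG and CGTGG on the reverse), and the last letters of the shortened element.
Pdia6, chr12:17266339-17266638, plus strand: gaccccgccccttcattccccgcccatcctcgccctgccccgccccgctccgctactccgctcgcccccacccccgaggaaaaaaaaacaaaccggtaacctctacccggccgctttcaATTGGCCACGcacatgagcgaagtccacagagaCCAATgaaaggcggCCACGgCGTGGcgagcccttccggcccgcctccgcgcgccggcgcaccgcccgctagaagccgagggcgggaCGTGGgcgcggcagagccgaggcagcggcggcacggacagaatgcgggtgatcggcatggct
Pdia4, chr6:47813463-47813762, minus strand: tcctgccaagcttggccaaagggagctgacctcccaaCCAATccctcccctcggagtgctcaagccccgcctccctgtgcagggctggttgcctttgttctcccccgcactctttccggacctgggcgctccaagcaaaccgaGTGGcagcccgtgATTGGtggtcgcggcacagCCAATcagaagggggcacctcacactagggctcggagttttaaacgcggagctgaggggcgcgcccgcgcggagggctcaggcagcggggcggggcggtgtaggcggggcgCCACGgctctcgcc
Pdia3, chr2:121413652-121413951, plus strand: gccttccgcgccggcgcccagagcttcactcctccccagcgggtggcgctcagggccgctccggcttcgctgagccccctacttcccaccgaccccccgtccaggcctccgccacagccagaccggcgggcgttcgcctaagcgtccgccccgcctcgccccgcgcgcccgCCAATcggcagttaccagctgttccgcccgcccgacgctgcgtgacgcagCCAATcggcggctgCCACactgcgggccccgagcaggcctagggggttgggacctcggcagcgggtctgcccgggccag
Pdia5, chr16:35490824-35491123, minus strand: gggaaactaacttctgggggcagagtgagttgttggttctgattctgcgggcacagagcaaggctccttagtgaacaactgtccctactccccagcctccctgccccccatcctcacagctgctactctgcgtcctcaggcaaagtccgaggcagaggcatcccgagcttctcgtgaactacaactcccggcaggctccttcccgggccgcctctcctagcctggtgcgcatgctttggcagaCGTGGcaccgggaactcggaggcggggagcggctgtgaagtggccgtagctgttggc
Agr2, chr12:35992675-35992974, plus strand: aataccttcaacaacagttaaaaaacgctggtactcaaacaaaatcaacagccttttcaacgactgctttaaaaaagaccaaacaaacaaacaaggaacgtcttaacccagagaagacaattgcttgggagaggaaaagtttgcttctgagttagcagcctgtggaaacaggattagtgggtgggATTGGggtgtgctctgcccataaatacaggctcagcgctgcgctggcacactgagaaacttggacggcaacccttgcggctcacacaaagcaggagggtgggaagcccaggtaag

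Each of these letter groups alone was common. CCAAT lay in 37.4% of all windows and in those of 6 of 9 members, and CCACG in 32.8% of all windows and in those of 5 of 9 members. The window of Agr2 held CCAAT on the reverse strand and no CCACG, and that of Pdia5 held CCACG on the reverse strand and no CCAAT. The genes with the full or shortened element had differences of 1.46 (Pdia6), 1.95 (Pdia4) and 0.99 (Pdia3), within the range of the other members.

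The other thioredoxin-fold genes of the endoplasmic reticulum were centred near 0. Of 13 such genes listed, 10 were on the array and 5 were detected, with 1 at least 2-fold higher by its fitted value (0 with that gene, Txndc11, at its limit), 1 at least 2-fold lower and 3 within 2-fold (median log2 difference 0.02). Tmx4, a membrane-bound thioredoxin protein, read 1246 on the null-labelled array, against 2358 on the wild-type-labelled array, 2.42-fold lower by its brighter probe (-1.28), while its other probe gave -0.60. Txndc11, a membrane protein that binds the peroxide-making oxidases of the thyroid, read 282 on the null-labelled array, against 175 (below background) on the wild-type-labelled array. It was 1.49-fold higher at its limit and 1.61-fold by the uncorrected signals. Erp44, which retains oxidases in the early secretory pathway, differed by 0.05. Agr3, the closest relative of Agr2, was below background on both arrays, with 119 on the null-labelled array and 96.9 on the wild-type-labelled array.

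Oxidases, peroxidases and selenoproteins that exchange electrons with the isomerases had a median between those of the members and of these relatives. Of 10 detected, 1 was at least 2-fold higher, 1 lower and 8 within 2-fold (median 0.49). Selenos was just under the 2-fold mark by its brightest probe (log2 difference 0.9996), while its other probe gave 1.16. The 3 detected probes of Vkorc1l1 ranged over 0.87 (the brightest) to 1.95. Those of Vkorc1 ranged over -0.39 (the brightest) to 0.62. Prdx4, the peroxidase that passes oxidizing power to isomerases, read 14506 on the null-labelled array, against 6248 on the wild-type-labelled array, 2.08-fold higher (1.06). Gpx8, a membrane peroxidase of the endoplasmic reticulum, was 2.63-fold lower (-1.39), with 336 on the null-labelled array and 558 on the wild-type-labelled array, and its 3 detected probes ranged over differences of -2.78 to -1.09. The brightest of these probes was 1.66-fold lower by the uncorrected signals. Ero1b, an oxidase that recharges disulfide isomerases, differed by 0.51, and Ero1a was below background on both arrays.

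Proteins known to bind members went in both directions. Of 14 detected, 6 were at least 2-fold higher by their fitted values (4 with genes below background on an array at their limit), 2 lower and 6 within 2-fold (median 0.46). The partners of P4hb in collagen prolyl hydroxylation were the lower ones. P4ha2, a catalytic alpha subunit, read 307 on the null-labelled array, against 641 on the wild-type-labelled array, 3.58-fold lower (-1.84) and 2.09-fold by the uncorrected signals. P4ha1, the other common alpha subunit, read 222 (below background) on the null-labelled array, against 391 on the wild-type-labelled array, 3.30-fold lower at its limit and 1.76-fold by the uncorrected signals. P4hb itself was 1.37-fold higher on the same array, so the mRNAs of the alpha and beta subunits differed in direction. All 6 detected fibroblast marker genes were within 2-fold (median -0.55), their summed signal being 18693 on the null-labelled array and 24357 on the wild-type-labelled array. All 7 smooth muscle markers were at least 2-fold lower by their fitted values, and 6 were so with Cnn1, below background on the null-labelled array, at its limit. Their summed signal was 20870 on the null-labelled array and 92197 on the wild-type-labelled array. Their part in the values of P4ha1 and P4ha2 was not tested.

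Of the glycoprotein-folding partners of Pdia3, calreticulin (Calr) was 4.98-fold higher, and 4.02-fold by the uncorrected signals. It read 1065 on the null-labelled array and 265 on the wild-type-labelled array, where it was little above background. Calnexin (Canx) was below background on both arrays, with 152 on the null-labelled array and 117 on the wild-type-labelled array. Tapbp, which encodes tapasin, the peptide-loading partner that forms a disulfide with Pdia3, was below background on the wild-type-labelled array by its brighter probe (304 on the null-labelled array, against 146 on the wild-type-labelled array) and at least 1.70-fold higher. Among partners of Dnajc10 and Pdia6 in chaperoning and degradation, the chaperone BiP (Hspa5) read 5875 on the null-labelled array, against 2443 on the wild-type-labelled array, 2.08-fold higher (1.05). Edem2, which starts the trimming of misfolded glycoproteins, was 2.32-fold higher by its brightest probe (13899 on the null-labelled array, against 5363 on the wild-type-labelled array), and its 4 detected probes ranged over 1.21 to 3.46. Edem1, the degradation partner of Dnajc10, read 282 on the null-labelled array, against 144 (below background) on the wild-type-labelled array, at least 1.49-fold higher. Manf, a stress-induced secreted factor that binds BiP, was 2.69-fold higher, with 496 on the null-labelled array and 225 on the wild-type-labelled array. By the uncorrected signals Manf was 2.21-fold higher.

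**Figure D3:**
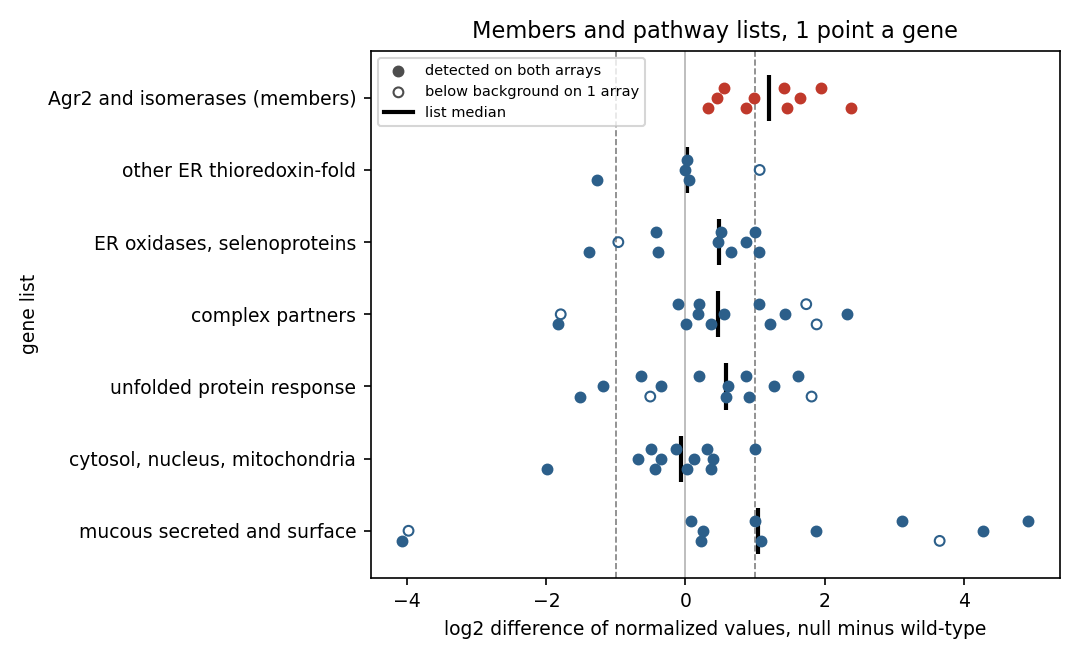
Log2 difference of normalized values, null minus wild-type, for each detected gene of 7 lists, with filled points for genes detected on both arrays, open points for the fitted values of genes below background on 1 array, bars at list medians and dashed lines at a 2-fold difference. The 10 members all lie right of 0 with a median of 1.20, and the other thioredoxin-fold genes of the endoplasmic reticulum and those of other compartments centre near 0 (medians 0.02 and -0.06).

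Thioredoxin-fold proteins and reductases of the cytosol, nucleus and mitochondria stood near the centre of all genes. Of 12 detected, 1 was at least 2-fold higher, 1 lower and 10 within 2-fold (median -0.06). Txnrd3, a thioredoxin and glutathione reductase, was just past 2-fold higher (log2 difference 1.002), with 386 on the null-labelled array and 219 on the wild-type-labelled array. By the uncorrected signals Txnrd3 was 1.76-fold higher. Txnrd2, the mitochondrial thioredoxin reductase, was 3.96-fold lower (-1.99), with 255 on the null-labelled array and 531 on the wild-type-labelled array. Its signal on the null-labelled array was little above background, and Txnrd2 was 2.08-fold lower by the uncorrected signals.

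The detected regulators of the unfolded protein response were mixed. Of 17 listed, 15 were on the array, with Atf6 and Eif2ak3 not found there. Ern1 and Mbtps2 were below background on both arrays. Of 13 detected, 3 were at least 2-fold higher, 2 lower and 8 within 2-fold (median 0.59, or 0.19 without the detection filter). Creb3l4, Creb3l2 and Creb3l1, which encode membrane-tethered transcription factors freed by cleavage within the membrane, were the higher ones. Creb3l4 read 3658 on the null-labelled array, against 1060 on the wild-type-labelled array, 3.07-fold higher (1.62), close to the difference of Agr2. Creb3l2 was 2.41-fold higher by its brightest probe, with 660 on the null-labelled array and 290 on the wild-type-labelled array. Creb3l1 read 448 on the null-labelled array, against 188 (below background) on the wild-type-labelled array, 3.02-fold higher at its limit and 2.38-fold by the uncorrected signals. Ddit3, which encodes the stress factor CHOP, was 2.85-fold lower, with 284 on the null-labelled array and 479 on the wild-type-labelled array. By the uncorrected signals Ddit3 was 1.69-fold lower. Ppp1r15b, a subunit of the phosphatase that restores translation, was 2.28-fold lower, with 244 on the null-labelled array and 335 on the wild-type-labelled array. By the uncorrected signals Ppp1r15b was 1.37-fold lower, and its signal on the null-labelled array was little above background. Ern2, an epithelial stress sensor of mucous cells, differed by 0.59 and Xbp1 by -0.35, with Ern2 at 19658 on the null-labelled array and 11748 on the wild-type-labelled array, and Xbp1 at 10561 on the null-labelled array and 11943 on the wild-type-labelled array.

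Secreted and surface proteins of mucous cells, among them mucins of the kind AGR2 is known to serve, split between large differences in both directions. Of 12 detected, 6 were at least 2-fold higher, 2 lower and 4 within 2-fold (median 1.04). Of the 4 within 2-fold, 3 (Gkn1, Gkn2 and Tff2) read over 40000 on both arrays, near the ceiling, where a difference may not show, and the median without these 3 was 1.87. Of the secreted mucins, Muc5ac was 16.8-fold lower and Muc6 was 2.12-fold higher. Muc6 read 1067 on the null-labelled array, against 467 on the wild-type-labelled array. Muc2 and Muc5b were not found on the array. Tff3, a trefoil peptide of goblet cells, read 195 (below background) on the null-labelled array, against 1087 on the wild-type-labelled array, 11.3-fold lower at its limit and 5.57-fold by the uncorrected signals. Pigr, which carries immunoglobulins into the lumen, was 30.5-fold higher, the gastrokine Gkn3 19.3-fold and the membrane mucin Muc13 3.65-fold. Dmbt1, a scavenger receptor of mucosal surfaces, was 8.68-fold higher. Muc4, another membrane mucin, was below background on the wild-type-labelled array, 4.65-fold higher at its limit and 4.89-fold by the uncorrected signals. Gkn3 on the null-labelled array read over 40000, near the ceiling.

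Marker genes of several cell types, some of them rich in endoplasmic reticulum, differed between the arrays in both directions. Of 4 detected plasma cell markers of 6 on the array, 3 were at least 2-fold higher, with a summed signal of 4108 on the null-labelled array and 1744 on the wild-type-labelled array, with Jchain and Pou2af1 below background on the wild-type-labelled array and Derl3 and Tnfrsf17 on both. Of 11 pancreatic acinar markers, 10 were at least 2-fold lower, with a summed signal of 18790 on the null-labelled array and 91029 on the wild-type-labelled array, and 9 of them, all but Cela1 and Clps, were below background on the null-labelled array. Mucous neck cell markers had 3 of 4 genes at least 2-fold higher (summed signals of 95850 on the null-labelled array and 48919 on the wild-type-labelled array, with A4gnt below background on the wild-type-labelled array). Of 3 surface mucous markers 1, Muc5ac, was at least 2-fold lower, with summed signals of 105166 on the null-labelled array and 128869 on the wild-type-labelled array. The other 2, Gkn1 and Gkn2, read over 40000 on both arrays, so the ceiling limits their differences and these sums, as it does for Tff2 among the mucous neck markers. Over 40000 on the wild-type-labelled array were also 3 chief, 3 parietal, 1 endocrine, 1 acinar, 2 squamous and 1 smooth muscle marker. Chief cell markers had 1 of 5 higher and 2 lower (summed signals of 49079 on the null-labelled array and 155066 on the wild-type-labelled array). Bhlha15, the transcription factor MIST1 of zymogenic cells, was the higher one at 3.504-fold. Parietal cell markers were all at least 2-fold lower, 5 of 5, with summed signals of 4907 on the null-labelled array and 152726 on the wild-type-labelled array, and Kcne2 was below background on the null-labelled array. Endocrine markers were at least 2-fold lower in 4 of 4 detected genes, with Gast below background on both arrays (summed signals of 7144 on the null-labelled array and 75728 on the wild-type-labelled array). Squamous markers were at least 2-fold lower in 7 of 8 genes (summed signals of 3827 on the null-labelled array and 140225 on the wild-type-labelled array), with Krt1, Krt4, Krt5 and Krt14 below background on the null-labelled array and Ivl, the higher one, on the wild-type-labelled array. All 5 detected neutrophil markers were at least 2-fold higher by their fitted values, and 4 were so with genes below background on an array at their limit. Csf3r and Retnlg were below background on the wild-type-labelled array and Elane on both, with summed signals of 30847 on the null-labelled array and 3329 on the wild-type-labelled array. The labels name the glandular stomach alone, yet squamous and acinar markers were bright on the wild-type-labelled array. Whether the 2 samples held the same tissue was not tested. The part of these cell types in the differences of the members was not tested.

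Outside the lists, the genes whose signals were most like those of Agr2 over the 2 arrays were Zbtb2, Cdk2ap2 and Smpd3. Likeness was the distance between the normalized log2 values over both arrays, among genes detected on both, and these distances were 0.04, 0.13 and 0.14. Zbtb2, a zinc finger transcription factor, read 3500 on the null-labelled array, against 968 on the wild-type-labelled array. With 2 arrays such likeness is a match of levels alone.

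**Figure D4:**
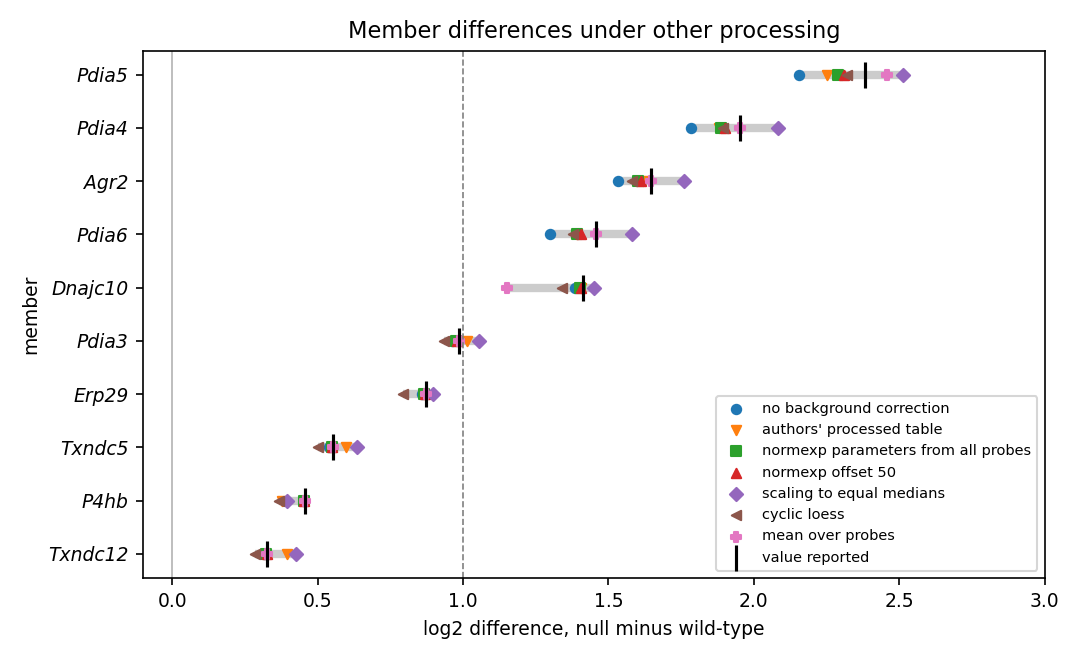
Log2 difference, null minus wild-type, of each member under the reported processing (black bars) and 7 other settings (coloured symbols), with a dashed line at a 2-fold difference. Every symbol lies right of 0, and Pdia3 is the member whose symbols fall on both sides of the 2-fold line.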

How the data were processed

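Total RNA of glandular stomach, labelled with biotin, was hybridized to 1 array per group, per the labels. The authors deposited linear intensity values, 1 per probe and array, as a table that was not normalized, and a processed intensity table that equals it times 1 factor per array (0.842 for null and 0.960 for wild-type, found from the values). Bead summary and background subtraction are not given in the sources used here. No detection p-values or control probes were used, so 1314 olfactory and vomeronasal receptor probes served as background.

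Starting from the signals that were not normalized, background was corrected with normexp (limma 3.58.1, R 4.3.3, offset 16), followed by quantile normalization and log2. Detection meant that under 0.01 of the background probes were as bright. The brightest probe stood for a gene, and all probes of members are given. Symbols were updated through RefSeq GRCm38.p6 (14309 of 18138 current, 2886 through a synonym), and 25 plain numbers were left unnamed. Mean signals were 925 on the null-labelled array and 811 on the wild-type-labelled array. The number of arrays limits the precision, and no test was made. The background correction and normalization were tested on simulated data in which a far smaller share of genes changed than differed here. Other steps were not tested in this way. From each pathway list, the largest differences past 2-fold were named, at most 4 in each direction (2 for genes detected on 1 array). Erp44, Agr3, Ero1a, Ero1b, Ern2, Xbp1, Bhlha15, Cela1, Clps and the genes beside Agr2 on its chromosome were added after their values were seen. So were Ern1, Mbtps2, Canx, Muc6, Selenos, Vkorc1 and Vkorc1l1. The members and lists were chosen with earlier results of these data known. After the files were read, the probe named ELA2 was moved to the neutrophil list and the older name of Gkn3 was added to its lists.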

Additional observations from a re-analysis of the deposited data

How the results depend on the processing

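Every member kept its direction under all 12 alternatives, which changed the background correction, its offset, the scaling, the probe rule, the detection filter and the fold threshold. The detection filter and the fold threshold could not change it, since all members were detected on both arrays and a threshold leaves differences as they are. The probe rule could change only the members with several probes. Only the changes of background correction, offset and scaling bear on the direction of all 10. Agr2 ranged over log2 differences of 1.53 (no background correction) to 1.76 (scaling to equal medians), and the median of the members over 1.07 (mean over probes) to 1.25. The count of members at least 2-fold higher was 5 or 6 under every setting that kept the 2-fold threshold. The share of all genes kept in those settings ran from 7.19% (no background correction) to 15.4% (scaling to equal medians). Relative to the median of detected genes the count was also 5 or 6, with 6 under cyclic loess alone. At a 1.5-fold threshold it was 7, against 24.2% of detected genes, and at a 3-fold threshold 3, against 5.44%. The count of members lower was 0 throughout. Past 2-fold lay 1198 higher and 1583 lower genes among all detected, against 666 higher and 1004 lower without background correction. Dnajc10 was 1.15 when its probe below background was averaged in. No paired analysis was possible because each group has 1 array. Signals near background, as for the dimmer Pdia5 probes on the wild-type-labelled array, limit the size of a fold.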

Other observations

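The annotated neighbours of Agr2 on chromosome 12 (RefSeq GRCm38.p6, protein-coding genes, 3 on each side) differed less than Agr2 itself. Snx13, a sorting nexin, read 542 on the null-labelled array, against 302 on the wild-type-labelled array (log2 difference 0.82). Tspan13, a tetraspanin next to Agr2, read 646 on the null-labelled array, against 381 on the wild-type-labelled array (0.62). Bzw2 differed by 0.48 and Ankmy2 by -0.15, and Ahr, the aryl hydrocarbon receptor, and Agr3 were below background on both arrays. These genes were chosen for their position after the data were seen.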
